A study of Arabidopsis thaliana and Setaria viridis and Zea mays with 22 samples.

Results

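The inner stele of the Arabidopsis root tip comprises here every cell or nucleus that the authors named 17_Stele, in all 9 Arabidopsis libraries. These are 960 of 32790 cells, or 2.93%, with 353 among 17687 protoplasts and 607 among 15103 nuclei. It ranked 14th of 17 named types by number of cells. Its closest neighbour in the tissue, 10_Pericycle, held 1519 cells and ranked 11th.

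Root meristems of the Col-0 strain were cut 150 µm from the tip after 7 days of growth, although the age label says 10 days. The 6 protoplast libraries, made from cells freed of their walls by enzymes, carry the names ctr1, ctr3248V3, ctr4h, ctr914, ical1 and ical32hV3, which the sources used here do not explain. The 3 nuclei libraries were made by lysis and are replicates 1, 2 and 3. The labels name no mutant and no treatment, and all 9 libraries share strain, tissue and growth.

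The stele is the central cylinder of the root. It holds the xylem and phloem with the procambial cells that form them, and the pericycle, from which lateral roots arise, is its outermost layer. SHORT-ROOT (SHR, AT4G37650 in RefSeq's TAIR10.1 annotation), the marker given for these cells, encodes a transcription factor that is made in the stele and moves outward into the next layer, where it takes part in the specification of the endodermis.

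The table used here gives for each cell the number of unique molecular identifiers (UMIs, a count of captured transcripts) and of genes detected, but no values of single genes. The name 17_Stele was therefore not checked against SHR, and it is used as the authors' own name. All 960 cells came from 1 cluster of the authors' clustering at resolution 0.6, and no other type held cells of that cluster. The largest contribution of a single library was 26.9% of the stele cells. In ical1, where each cell was listed 2 times, all 26 stele cells bore the same name in both listings (exact 95% lower bound 86.8%), as did 1040 of all 1085 cells, or 95.9%.

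Several libraries stood apart in ways that touch the stele values. The smallest UMI count of any cell was 10002 to 15068 in protoplast libraries and 1150 to 1211 in nuclei libraries, with total UMIs of 50723576 to 138202792 in protoplast and 16761417 to 23093915 in nuclei libraries. The library ctr1 held 2 barcode series of 1660 and 1632 cells, with 11 and 16 stele cells, or 0.663% and 0.980% (95% Wilson intervals 0.370% to 1.18% and 0.604% to 1.59%), and it was counted as 1 library. The labels give chemistry version 2 for all protoplasts and version 3 for all nuclei. The barcodes of ctr1 and ical1 occurred 0 times in the nuclei libraries, while ctr3248V3, ctr4h, ctr914 and ical32hV3 shared 25, 7, 18 and 10 barcodes with them. The barcodes thus divide the protoplast libraries where the labels give them 1 version, and the chemistry of single protoplast libraries is uncertain. Of the 960 stele barcodes 7 also occurred in another library, and 0 were named stele in both. Nothing in the labels ties libraries to separate plantings, so the p-values speak of variation among these libraries alone, part of which may be technical.

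The stele share of a library varied widely among protoplasts and little among nuclei. Stele cells numbered 27, 12, 83, 155, 26 and 50 in the protoplast libraries ctr1, ctr3248V3, ctr4h, ctr914, ical1 and ical32hV3, and 258, 168 and 181 in nuclei replicates 1, 2 and 3. The shares were 0.820%, 0.319%, 3.47%, 4.05%, 2.40% and 1.50% of protoplasts in the same order of libraries, against 5.01%, 3.68% and 3.35% of nuclei. The lowest, in ctr3248V3, had a 95% Wilson interval of 0.182% to 0.556%, and the highest among protoplasts, in ctr914, one of 3.47% to 4.72%, both covering counting error only. Thus 4 of 6 protoplast libraries lay below every nuclei library, and ctr4h and ctr914 lay within the range of the nuclei. The range was 12.7-fold among protoplasts, or 4.94-fold without ctr3248V3, and 1.49-fold among nuclei. Added libraries can only widen a range, and the protoplasts had 6 libraries against 3 of nuclei.

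Averaged over libraries, the stele made up 2.09% ± 1.48 in the 6 protoplast libraries and 4.02% ± 0.879 in the 3 nuclei libraries (mean ± SD). The difference did not pass its test. It was -0.95 on the log2 scale with a standard error of 0.62 (edgeR quasi-likelihood test, adjusted p = 0.265 over 17 types), in a fit that called 6 of 17 types, or 35.3%. An exact two-sided permutation of the share gave -1.92 percentage points and an unadjusted p = 0.0952 (adjusted 0.202 over 17 types). The tables begin at different UMI minima in the preparations, and the part of those minima in the shares was not tested. With protoplasts under 20000 UMIs left out, which widens the gap in minima, the log2 difference was -1.06 (edgeR adjusted p = 0.0863). Measured as the SD of log2 odds, the spread of the stele share among protoplast libraries was 1.40 (0.95 without ctr3248V3), the second largest of the 17 types after the pericycle at 2.07, against 0.32 among nuclei. That difference in spread was not tested.

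**Figure D1:**
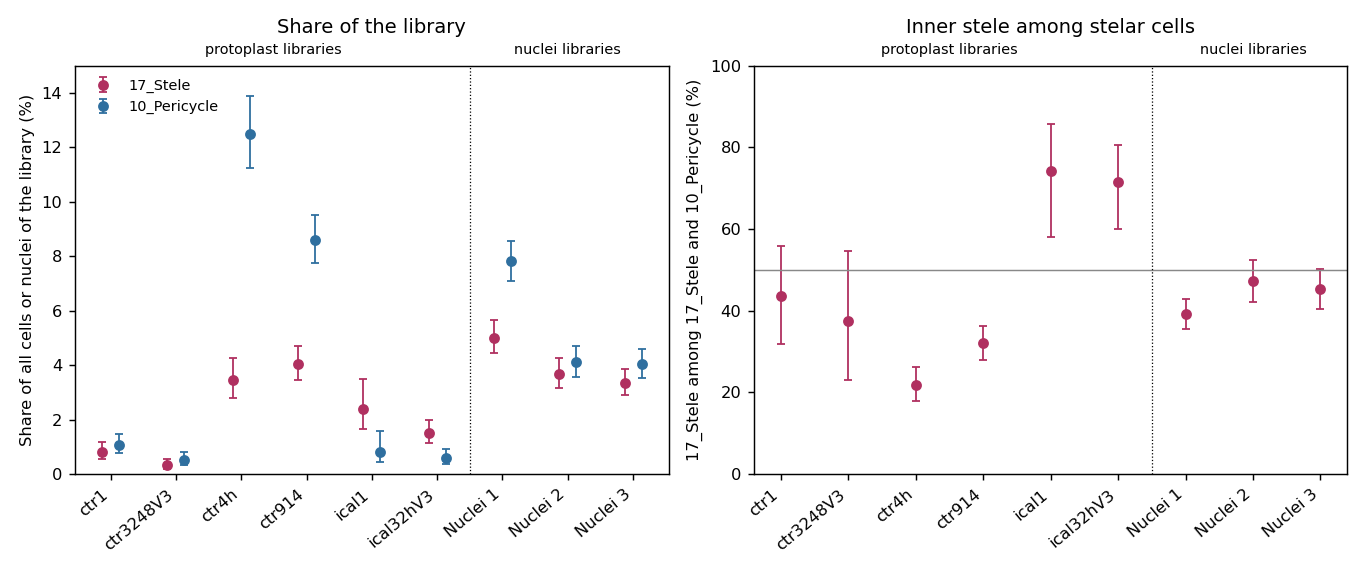
Left, the share of 17_Stele and of 10_Pericycle among all cells or nuclei of each library, in percent; right, the share of 17_Stele among the cells named 17_Stele or 10_Pericycle, in percent, with a line at equal numbers. Points are single libraries and bars their 95% Wilson intervals. Only ical1 (74.3%) and ical32hV3 (71.4%) lie above the line, and their intervals do not reach it. Below the line, the intervals of ctr1, ctr3248V3 and most nuclei libraries cross it.

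Set against the pericycle, the stele was the smaller class in most libraries but not in those named ical. The pericycle held 35, 20, 299, 329, 9 and 20 protoplasts in ctr1, ctr3248V3, ctr4h, ctr914, ical1 and ical32hV3, and 402, 187 and 218 nuclei in replicates 1, 2 and 3. There were 0.771, 0.60, 0.278, 0.471, 2.89 and 2.50 stele cells per pericycle cell in the protoplast libraries, against 0.642, 0.898 and 0.830 in the nuclei libraries. The stele share lay below the pericycle share in 4 of 6 protoplast libraries and in 3 of 3 nuclei libraries. Among these, the 95% Wilson interval lay wholly below equal numbers only in ctr4h, ctr914 and nuclei replicate 1. It included equal numbers in ctr1, ctr3248V3 and nuclei replicates 2 and 3. The nuclei ratios fell inside the protoplast range, which reached beyond them on both sides.

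On the log2 scale, with 0.5 cells added to each count, the ratio averaged -0.20 with an SD of 1.33 in 6 protoplast libraries and -0.35 with an SD of 0.25 in 3 nuclei libraries. The difference of 0.15 was within the spread between libraries (exact two-sided permutation p = 0.893, where 0.0119 is the smallest that 84 splits allow). Without ical1 it was -0.19 and without ical32hV3 it was -0.15, so its direction rested on either library. Without both it was -0.65 (exact permutation p = 0.143). Among stele and pericycle cells together, the stele made up 46.8% ± 21.5 in protoplasts (SD, n = 6) and 43.9% ± 4.30 in nuclei (SD, n = 3).

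Among protoplast libraries, the 2 with the highest pericycle shares also had the highest stele shares. The pericycle made up 1.06%, 0.531%, 12.5%, 8.60%, 0.829% and 0.602% of ctr1, ctr3248V3, ctr4h, ctr914, ical1 and ical32hV3, so that ctr4h and ctr914 stood apart from the other 4. Neither set holds the 6 libraries that a correlation would need here, so no correlation with the pericycle share is given. Over the shares of all 16 other types, 0 exact permutation tests of Pearson's r over log2 odds passed after adjustment, or 0%, and 1 had an unadjusted p under 0.05 (0_Young_Columella, r = -0.86, exact permutation p = 0.0292, adjusted 0.338). That r was -0.42 without the 2 libraries farthest from the median 0_Young_Columella share, so it rested on those, and Spearman's rho over all 6 was -0.771 (exact permutation p = 0.103, adjusted 0.476). Shares of 1 library add to a fixed total and are not independent of each other.

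Stele cells had a middling UMI content. Their median was 25330, 39114.5, 16114, 18347, 28521.5 and 19434.5 UMIs in the protoplast libraries ctr1, ctr3248V3, ctr4h, ctr914, ical1 and ical32hV3, and 2122, 2755.5 and 2870 UMIs in nuclei replicates 1, 2 and 3. Over all cells of the same libraries the median was 25390, 17291.5, 16709, 27603, 28379 and 17083 UMIs in protoplasts and 2320, 2801 and 2984.5 UMIs in nuclei. The stele median lay below that of the library in 3 of 6 protoplast and 3 of 3 nuclei libraries. In ctr3248V3, which rests on 12 stele cells, it was far above. Among the types with at least 10 cells the stele ranked 10th, 5th, 10th, 12th, 8th and 9th from the top in protoplasts, and 13th, 12th and 11th in nuclei.

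Relative to the median over types in its library, the stele averaged 0.03 log2 units in protoplasts and -0.13 in nuclei. The difference of 0.16 (standard error 0.15) did not pass (limma adjusted p = 0.398), in a fit that called 8 of 17 types, or 47.1%. The highest library was ctr3248V3, at 0.48 on 12 cells. Without it the protoplast mean was -0.06 and the difference 0.06 (limma adjusted p = 0.565). In all, stele cells supplied 0.646%, 0.426%, 2.73%, 2.51%, 1.50% and 1.14% of the UMIs of the 6 protoplast libraries and 4.38%, 3.32% and 3.11% of those of the 3 nuclei libraries.

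**Figure D2:**
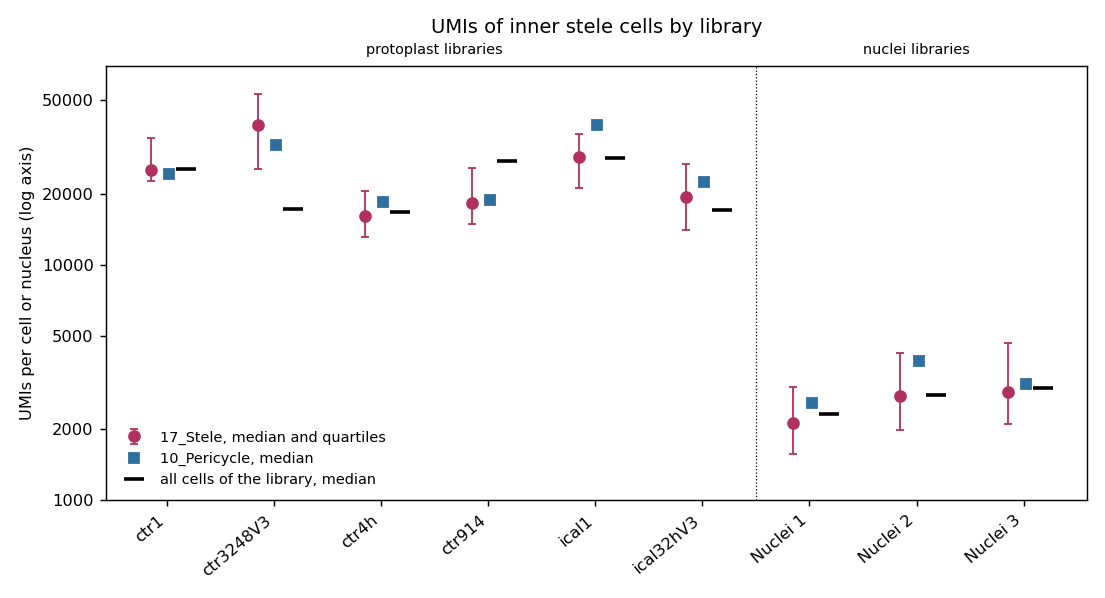
UMIs per cell or nucleus on a log axis for each library. Circles are the 17_Stele medians with bars from the lower to the upper quartile, squares the 10_Pericycle medians (9 cells in ical1) and dashes the medians over all cells; in nuclei replicates 1 to 3 the stele median lies below both others.

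The difference in UMIs between the stele and the pericycle did not pass its test. The pericycle median was 24228, 32184, 18517, 18821 and 22391.5 UMIs in ctr1, ctr3248V3, ctr4h, ctr914 and ical32hV3, and 2580.5, 3905 and 3123.5 UMIs in nuclei replicates 1, 2 and 3. The library ical1, with 9 pericycle cells, was below the minimum of 10 and was left out. The stele minus pericycle difference in median log2 UMIs was 0.06, 0.28, -0.20, -0.04 and -0.20 in those protoplast libraries, against -0.28, -0.50 and -0.12 in the nuclei libraries. The stele was thus lower in 6 of 8 libraries, among them the 3 nuclei libraries.

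The mean difference was -0.13 with an SD of 0.24 over 8 libraries (exact two-sided sign-flip permutation p = 0.188, adjusted 0.214 over 16 types). It was -0.02 in 5 protoplast libraries (exact sign-flip p = 0.938) and -0.30 in 3 nuclei libraries (exact sign-flip p = 0.25, the smallest that 3 libraries allow). The difference between preparations, 0.28, did not pass an exact permutation test (p = 0.107, the smallest possible being 0.0179). Without nuclei replicate 2 the mean was -0.07 (exact sign-flip adjusted p = 0.429) and the difference between preparations 0.18 (exact permutation p = 0.333). With the lowest 10% of UMIs of each library left out, the mean was -0.19 and passed (exact sign-flip adjusted p = 0.0417). The difference between preparations was then 0.22, with an unadjusted exact permutation p of 0.0357. After adjustment 4 of 16 types passed in that setting, and the pericycle was not among them.

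The stele held fewer UMIs than the epidermal and cortical types and more than several columella and root cap types of the same library. Of the 16 other types 10, or 62.5%, differed from the stele by the exact sign-flip test over libraries after adjustment. Both types of such a pair come from the same library, so depth is shared. The names rest on clusters of the same cells' expression, and any part of UMI content in that clustering was not tested.

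Against 13_Trichoblast, the epidermal cells that form root hairs, the stele differed by -1.20, -1.03, -1.68, -1.79, -1.27 and -1.10 log2 units in ctr1, ctr3248V3, ctr4h, ctr914, ical1 and ical32hV3 and by -0.60, -0.52 and -0.57 in nuclei replicates 1, 2 and 3. The mean was -1.08, or 0.472-fold, with the stele lower in 9 of 9 libraries (exact sign-flip adjusted p = 0.0125). All 9 values lay below 0, and the protoplast and nuclei values did not overlap. Against 20_Cortex, the ground tissue beneath the epidermis, the mean was -0.68 with the stele lower in 9 of 9 libraries (exact sign-flip adjusted p = 0.0125), and the preparations were close, at -0.71 in protoplasts and -0.60 in nuclei. The stele was also lower than 2_12_15_19_Initials_Epidermis (-0.69, 9 of 9 libraries), 11_18_Endocortex (-0.58, 9 of 9) and 5_Atrichoblast, the hairless epidermal cells (-0.59, 8 of 9), with exact sign-flip adjusted p-values of 0.0125, 0.0125 and 0.0156.

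The stele lay above several types of the columella and the lateral root cap (LRC), which cover the tip. Against 9_Columella_LRC_Indertermined it was higher by 0.59, 0.97, 0.43, 0.44, 0.28 and 0.46 log2 units in the 6 protoplast libraries and by 0.29, 0.22 and 0.11 in the 3 nuclei libraries, with a mean of 0.42 (9 of 9 libraries, exact sign-flip adjusted p = 0.0125). It was higher in 8 of 9 libraries than 7_Young_LRC, 0_Young_Columella, 14_Columella (by its name the gravity-sensing core of the cap) and 4_To_determined, a type with no tissue name. The means of these were 0.53, 0.51, 0.42 and 0.23 in that order, with exact sign-flip adjusted p-values of 0.025, 0.0156, 0.0156 and 0.0208. The excess over 0_Young_Columella and 14_Columella lay mostly in protoplasts, at 0.73 and 0.60 against 0.07 and 0.08 in nuclei. Over 4_To_determined it was 0.13 in protoplasts and 0.43 in nuclei. The differences between preparations for these types did not pass (exact permutation adjusted p = 0.0635, 0.169 and 0.143). For 7_Young_LRC the call was lost without ctr1, ctr4h, ctr914, ical1 or ical32hV3, at an adjusted p of 0.05 by the same exact test, which has fewer sign-flips with 8 libraries, while the mean stayed at 0.50 to 0.54. With the lowest 10% of UMIs left out it was lost for 14_Columella and 4_To_determined (exact sign-flip adjusted p = 0.0511 and 0.0769). For 4_To_determined it was also lost with means in place of medians, at 0.15 (exact sign-flip adjusted p = 0.120). With the authors' SCT-corrected counts, which are made to remove differences in depth between cells, it was lost for 4_To_determined at 0.07 and for 7_Young_LRC at 0.09 (exact sign-flip adjusted p = 0.0694 and 0.135), and the difference from 13_Trichoblast, still called, was -0.12.

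The other 6 types did not differ from the stele by this test, among them its neighbours in the tissue. The endodermis (21_endodermis), the layer around the pericycle, differed by -0.23 over 8 libraries (exact sign-flip adjusted p = 0.0568). It passed at -0.29 without ctr3248V3 (exact sign-flip adjusted p = 0.025). The dividing cells of 1_3_G2MphaseCells differed by -0.38 (exact sign-flip adjusted p = 0.0573), and by -0.51 without ctr3248V3 (exact sign-flip adjusted p = 0.0179). For 6_LRC, 16_Undertermided and 8_Initials_QC the means were 0.41, -0.15 and 0.13 (exact sign-flip adjusted p = 0.0913, 0.479 and 0.562). The call for 6_LRC was gained without nuclei replicate 1 or 2, at 0.52 (exact sign-flip adjusted p = 0.0455 for both).

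**Figure D3:**
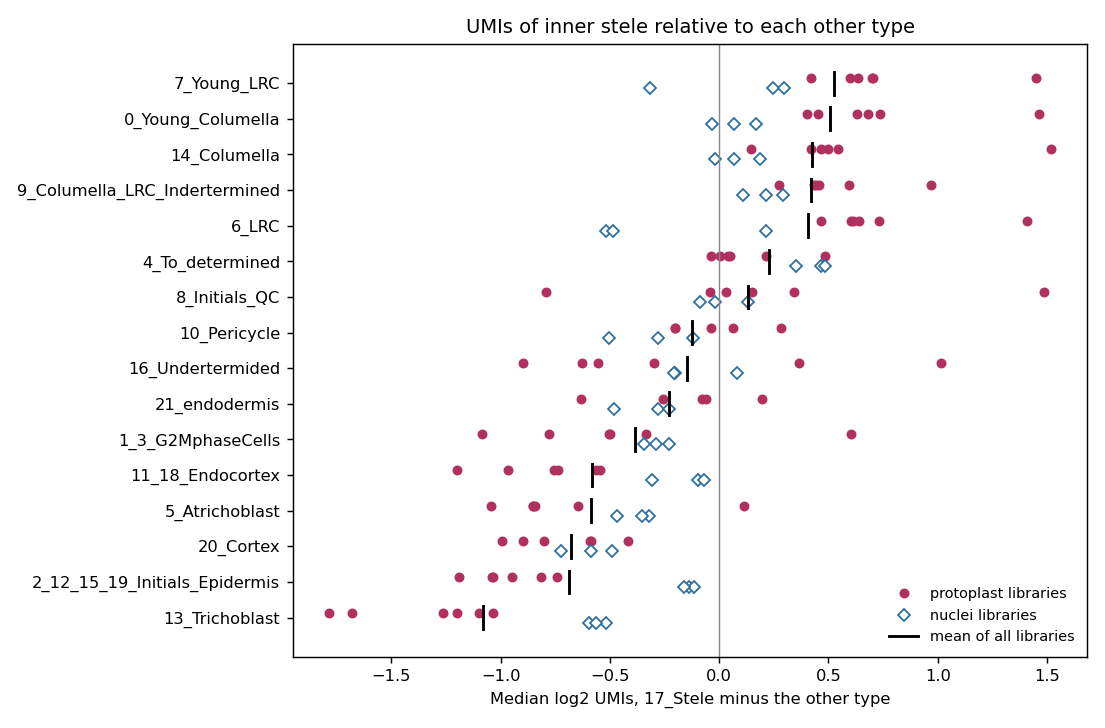
Difference in median log2 UMIs, 17_Stele minus each other type of the same library, for types of at least 10 cells. Filled circles are protoplast libraries, open diamonds nuclei libraries and black bars the mean over libraries, which runs from -1.08 for 13_Trichoblast to 0.53 for 7_Young_LRC.

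The difference in UMIs between the stele and several types changed between preparations, with larger shifts in those types than in the stele. The stele minus type difference in UMIs differed between protoplasts and nuclei for 5 of 16 types, or 31.2%, each at the smallest p that 84 splits allow (exact permutation p = 0.0119, adjusted 0.0381). Against 2_12_15_19_Initials_Epidermis it averaged -0.96 in protoplasts and -0.14 in nuclei. Against 13_Trichoblast it averaged -1.34 in protoplasts and -0.56 in nuclei, and against 11_18_Endocortex -0.80 in protoplasts and -0.16 in nuclei. The gap to these types was wider in every protoplast library than in any nuclei library. Against 6_LRC the stele was higher in 6 of 6 protoplast libraries, by 0.74 on average, and averaged -0.26 in nuclei, where replicates 1 and 2 were below 0 and replicate 3 above. Against 7_Young_LRC it averaged 0.75 in protoplasts and 0.07 in nuclei. Relative to the median over types, protoplasts minus nuclei was 0.98 for 2_12_15_19_Initials_Epidermis, 0.94 for 13_Trichoblast and 0.79 for 11_18_Endocortex. It was -0.85 for 6_LRC and -0.52 for 7_Young_LRC, and limma called all 5. The stele and the pericycle were at 0.16 and -0.12, and neither was called.

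With 1 library fewer the smallest possible p is larger, so calls lost in that way say nothing about stability. Leaving out ctr1, ical1, ctr4h, ical32hV3 or 1 of the nuclei replicates, 0 of 16 passed by the same exact permutation test, while 8 passed without ctr3248V3 and 6 without ctr914. Over these alternatives the difference between preparations ran from -0.87 to -0.78 for 2_12_15_19_Initials_Epidermis, from -0.85 to -0.70 for 13_Trichoblast and from -0.71 to -0.56 for 11_18_Endocortex. It ran from 0.87 to 1.25 for 6_LRC and from 0.48 to 0.79 for 7_Young_LRC.

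None of the 5 calls kept its direction and passed with SCT-corrected counts. These reversed 3 of them, at 0.05 for 2_12_15_19_Initials_Epidermis, 0.20 for 13_Trichoblast and 0.07 for 11_18_Endocortex, of which 13_Trichoblast passed in the opposite direction (exact permutation adjusted p = 0.0476). The other 2 kept their direction but did not pass, at 0.23 for 6_LRC and 0.11 for 7_Young_LRC (exact permutation adjusted p = 0.109 and 0.444). With the lowest 10% of UMIs left out 7_Young_LRC did not pass either, at 0.64 (exact permutation adjusted p = 0.0762).

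Within a library the stele was more uniform in UMIs than most types. Its interquartile range was 0.61, 1.06, 0.66, 0.80, 0.77 and 0.92 log2 units in ctr1, ctr3248V3, ctr4h, ctr914, ical1 and ical32hV3, against 0.96, 1.08 and 1.14 in nuclei replicates 1, 2 and 3. It was narrower than that of all cells and than that of the median type in 6 of 6 protoplast and 3 of 3 nuclei libraries. The same held against the pericycle, but there ical1 had 9 pericycle cells, under the minimum of 10. Among the types the stele ranked 3rd to 7th narrowest, and was nowhere the narrowest.

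The stele share was highest in the middle of the UMI range in most libraries. With each library divided into 3 equal parts by UMIs, the stele share was highest in the middle part in 4 of 6 protoplast and 2 of 3 nuclei libraries. It was lowest in the upper part in 3 of 6 protoplast and 3 of 3 nuclei libraries, and lowest in the lower part in 3 of 6 and 0 of 3. In ctr914 the stele made up 5.64%, 5.57% and 0.940% of the lowest, middle and highest part, on 72, 71 and 12 cells. In ctr3248V3 the order was the opposite, with 0, 2 and 10 stele cells. These are descriptions of each library, with no test.

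Cells above 2 times the library median made up 11.1%, 58.3%, 8.43%, 1.94%, 0% and 12% of the stele in ctr1, ctr3248V3, ctr4h, ctr914, ical1 and ical32hV3 and 13.2%, 17.9% and 14.9% in nuclei replicates 1, 2 and 3. Over all cells such shares ran from 20.7% to 27.5% in protoplast and from 16.7% to 19.4% in nuclei libraries. The stele share was lower than that of all cells in 5 of 6 protoplast and 3 of 3 nuclei libraries, ctr3248V3 being the exception on 7 of 12 cells. In the pericycle such shares ran from 3.34% to 45% in protoplast and from 22.0% to 32.6% in nuclei libraries. They were below those of all cells in ctr1, ctr4h and ctr914 and above them elsewhere. The sources used here do not say how doublets were treated, and their part in these values was not tested.

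**Figure D4:**
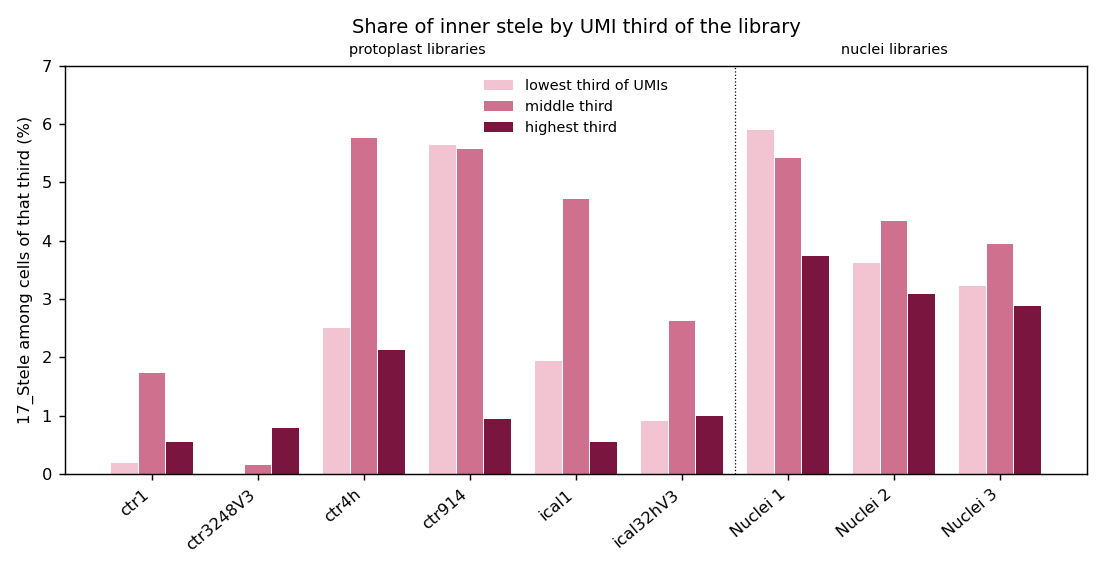
Share of 17_Stele, in percent, among the cells of the lowest, middle and highest of 3 equal parts of each library by UMIs, light to dark. In nuclei replicates 1 to 3 the highest part has the lowest share (3.73%, 3.09% and 2.89%), and in ctr3248V3 the lowest part has no stele cell.

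The number of genes detected in stele cells followed their UMIs closely. The median was 5591, 6481.5, 3851, 4355, 5340.5 and 4841 genes in ctr1, ctr3248V3, ctr4h, ctr914, ical1 and ical32hV3, and 1616.5, 1971 and 1972 genes in nuclei replicates 1, 2 and 3. To compare cells at equal UMIs, a quadratic curve of log2 genes on log2 UMIs was fitted to all cells of a library. At the median, stele cells deviated from that curve by -0.983%, 2.38%, -3.70%, -1.87%, -1.16% and -1.05% of genes in the protoplast libraries, in the same order, and by 1.99%, 1.51% and 1.07% in the nuclei libraries. They lay above the curve in 1 of 6 protoplast libraries, ctr3248V3, and in 3 of 3 nuclei libraries.

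Among the types, the stele ranked 13th, 7th, 16th, 14th, 12th and 11th by this measure in protoplasts, and 4th, 3rd and 7th in nuclei. The mean deviation was -0.02 log2 units in protoplasts and 0.02 in nuclei, and the difference of -0.04 (standard error 0.018) did not pass (limma adjusted p = 0.193), in a fit that called 1 of 17 types, or 5.88%. When cells were instead matched within windows of 0.25 log2 UMIs, the difference was -0.05 and passed (limma adjusted p = 0.0377).

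At equal UMIs, the stele lay above the pericycle in genes in 7 of 8 libraries, a difference that did not pass after adjustment. The stele minus pericycle difference was -0.03, 0.08, 0.06, 0.01 and 0.01 log2 units in ctr1, ctr3248V3, ctr4h, ctr914 and ical32hV3, against 0.09, 0.06 and 0.05 in nuclei replicates 1, 2 and 3. Only ctr1 was below 0, and the highest value was 1.06-fold. The mean was 0.04 with an SD of 0.042 (exact sign-flip p = 0.0391, adjusted 0.0893). It was 0.03 in protoplasts and 0.07 in nuclei, a difference that did not pass an exact permutation test (p = 0.232).

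Against all 16 types, 0 of 16 differences in genes at equal UMIs passed over the 9 libraries by the exact sign-flip test, or 0%, and 7 had an unadjusted p under 0.05. These were 8_Initials_QC (-0.11), 7_Young_LRC and 0_Young_Columella (-0.09 each), 9_Columella_LRC_Indertermined (-0.05), 1_3_G2MphaseCells and 11_18_Endocortex (-0.04 each) and the pericycle (0.04). With windows of 0.25 log2 UMIs 4 types passed, among them 0_Young_Columella (-0.09), 11_18_Endocortex (-0.06) and 8_Initials_QC (-0.10).

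In genes at equal UMIs, the distance of the stele from 4 of 16 types differed between protoplasts and nuclei. Against 8_Initials_QC, which by its name holds initials and the quiescent centre, the difference was -0.20, -0.22, -0.15, -0.07, -0.22 and -0.13 log2 units in ctr1, ctr3248V3, ctr4h, ctr914, ical1 and ical32hV3, and between -0.01 and 0.00 in the 3 nuclei libraries. All 6 protoplast libraries lay below all 3 nuclei libraries. The means differed by -0.16 between preparations (exact permutation p = 0.0119, adjusted 0.0476). The same test passed for 7_Young_LRC, 0_Young_Columella and 1_3_G2MphaseCells, at -0.15, -0.13 and -0.06 with the same adjusted p, which makes 4 of 16 types, or 25%. In deviation from the curve, protoplasts minus nuclei was 0.12 for 8_Initials_QC, 0.12 for 7_Young_LRC, 0.10 for 0_Young_Columella and 0.03 for 1_3_G2MphaseCells. The stele itself was at -0.04, and limma called only 0_Young_Columella (adjusted p = 0.0323). Without ctr3248V3 6 types passed, and without any 1 of the other libraries 0 passed by the same exact permutation test. The smallest possible p is larger in each of these cases, with ctr3248V3 left out too. Over these alternatives the difference ran from -0.18 to -0.15 for 8_Initials_QC, from -0.17 to -0.14 for 7_Young_LRC, from -0.15 to -0.12 for 0_Young_Columella and from -0.068 to -0.060 for 1_3_G2MphaseCells. With windows of 0.25 log2 UMIs 8_Initials_QC did not pass, at -0.14 (exact permutation adjusted p = 0.0635).

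**Figure D5:**
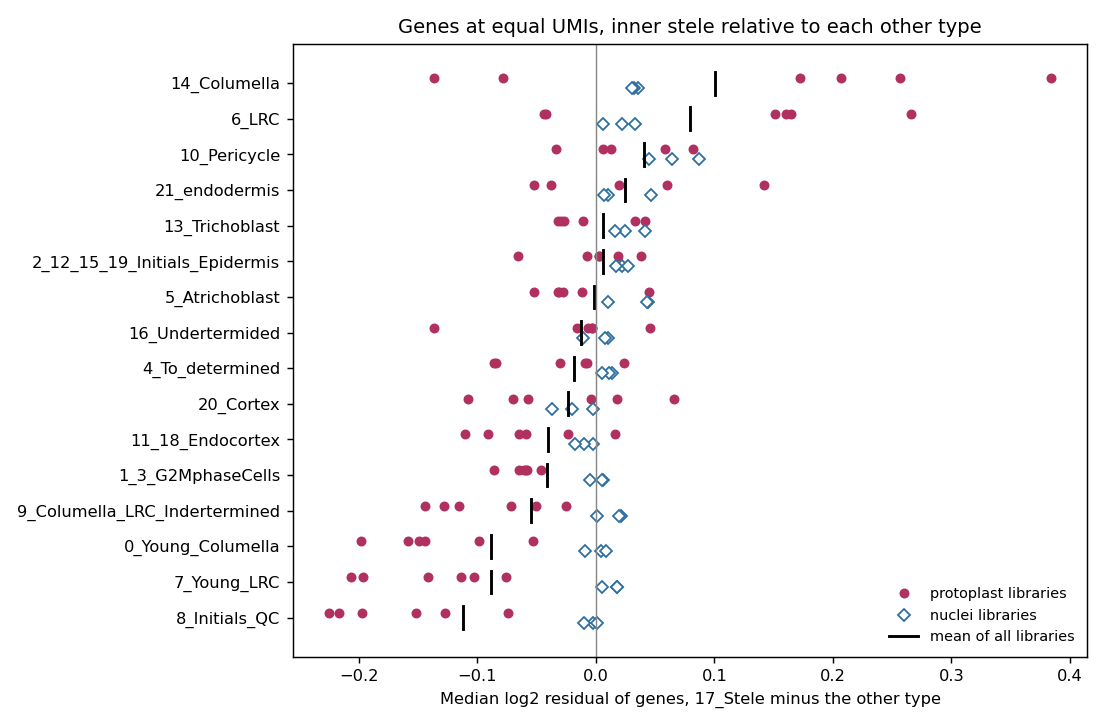
Difference in genes at equal UMIs, as the median log2 deviation from the curve of the library, 17_Stele minus each other type. Filled circles are protoplast libraries, open diamonds nuclei libraries and black bars the mean over libraries, which runs from -0.11 for 8_Initials_QC to 0.10 for 14_Columella.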

How the data were processed

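The authors deposited 1 table of Arabidopsis cells and nuclei with the count of UMIs and of genes per cell as raw counts, and SCT-corrected values, a score used here only as an alternative, per the file headers. Reads were processed with Cell Ranger 5.0.1 and Seurat 4.0 against TAIR10, per the submitters' processing notes, and the sources used here do not state the filters on cells. Of 33875 entries, 1085 second listings in ical1 were dropped. The library was the replicate. Nuclei libraries were matched to samples by name, and protoplast libraries only to their preparation. Cells per type were fitted with edgeR 4.0.16 (quasi-likelihood, total cells as library size), and relative UMIs and genes at equal UMIs with limma 3.58.1 (robust). A type entered where a library held 10 or more of its cells. Differences within libraries were tested by exact sign-flips and differences between preparations by exact permutation over libraries (numpy 2.4.6), two-sided, with Benjamini-Hochberg adjustment over the types and a threshold of 0.05. DESeq2 1.42.0, other filters, curves and left-out libraries were alternatives. Scripts were tested on simulated data. All annotated types were open to naming. The members, tests and lists were chosen with earlier results of these data known. The grass table was not used here.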

Additional observations from a re-analysis of the deposited data

Results flagged for a closer look

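In 8 of 43 values examined, 1 library stood apart from the others of its preparation. Chance gives about 1 in 20 for a single value, but the 43 values share cells and are not independent. The count cannot therefore be set against that rate. The protoplast library ctr3248V3 accounted for 7 of the 8, all drawn from the UMIs of the same 12 stele cells. It had 58.3% of its stele cells above 2 times the library median, and a stele median 0.48 log2 units above that of the types. Its stele minus type differences in log2 UMIs were 1.46 for 0_Young_Columella, 1.52 for 14_Columella, 0.11 for 5_Atrichoblast, 1.41 for 6_LRC and 1.45 for 7_Young_LRC, each the highest of the 6 protoplast libraries. In ctr4h the difference in genes at equal UMIs from 16_Undertermided was -0.14 log2 units, the lowest of 6.

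The distance of the stele from other types differed between protoplasts and nuclei in the values that follow. Each is a difference of 2 types, so a shift of the other type enters it as much as a shift of the stele. For UMIs, the protoplast minus nuclei difference was -0.64 for 11_18_Endocortex, -0.79 for 13_Trichoblast, -0.82 for 2_12_15_19_Initials_Epidermis, 1.01 for 6_LRC and 0.68 for 7_Young_LRC on the log2 scale (exact permutation adjusted p = 0.0381 each). For genes at equal UMIs it was -0.13 for 0_Young_Columella, -0.065 for 1_3_G2MphaseCells, -0.15 for 7_Young_LRC and -0.16 for 8_Initials_QC (exact permutation adjusted p = 0.0476 each). For 9_Columella_LRC_Indertermined it was -0.10, with the stele lower in 6 of 6 protoplast libraries and higher in 3 of 3 nuclei libraries, and this did not pass (exact permutation adjusted p = 0.0762). The UMI minimum also differs between protoplasts and nuclei and cannot be told apart from the preparation. The labels give another chemistry version for protoplasts than for nuclei, but 4 protoplast libraries share barcodes with nuclei and 2 do not, so the chemistry of single protoplast libraries is uncertain. With those 4 protoplast libraries alone, an alternative added after seeing the data, the differences in UMIs were -0.61 for 11_18_Endocortex, -0.84 for 13_Trichoblast, -0.80 for 2_12_15_19_Initials_Epidermis, 1.04 for 6_LRC and 0.72 for 7_Young_LRC. Those in genes at equal UMIs were -0.11 for 0_Young_Columella, -0.065 for 1_3_G2MphaseCells, -0.12 for 7_Young_LRC and -0.14 for 8_Initials_QC. None of these passed (exact permutation adjusted p = 0.114 to 0.183), and with 7 libraries the smallest possible p is larger.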

How the results depend on the processing

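None of the 9 main comparisons passed. Of their 125 alternative values, 118 kept their direction and also did not pass. For the exact tests a left-out library raises the smallest possible p, so this count says little about stability. The log2 difference in the stele to pericycle ratio between protoplasts and nuclei, 0.15, reversed to -0.23 with the 4 protoplast libraries that share barcodes with nuclei and to -0.65 without both libraries named ical, alternatives chosen after seeing the data. It ranged from -0.19 to 0.48 when each library was left out in turn, with -0.19 without ical1 and -0.15 without ical32hV3. With the lowest 10% of UMIs left out, the stele minus pericycle difference passed at -0.19 over libraries. Between preparations it was 0.22 and passed only before adjustment over types (exact permutation p = 0.0357). With windows of 0.25 log2 UMIs, the difference in stele genes between preparations passed at -0.048 (limma adjusted p = 0.0377). The cause of these changes was not tested.

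Among the single types, 477 alternatives were run on 35 results, and 337 kept direction and call. The stele minus 8_Initials_QC difference in UMIs reversed to -0.036 with at least 20 cells per type and without ctr3248V3. With SCT-corrected counts, tried after seeing the data, the stele minus 16_Undertermided difference was 0.0090, and the preparation differences reversed to 0.067 for 11_18_Endocortex, 0.20 for 13_Trichoblast and 0.054 for 2_12_15_19_Initials_Epidermis. Under all alternatives 0 to 12 of 16 types differed from the stele in UMIs and 0 to 4 in genes at equal UMIs, and 0 to 8 and 0 to 6 differed between preparations. The count of 0 for UMIs came with the 4 protoplast libraries that share barcodes with nuclei, where 7 libraries allow fewer sign-flips; other alternatives gave 8 or more.

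No paired analysis was possible because the names of the protoplast libraries carry no replicate number. Precision was limited by 12 to 155 stele cells per protoplast library and by 3 nuclei libraries, and with 84 splits no exact test between preparations could go below p = 0.0119.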
